A study of Mus musculus with 2 samples.

Results

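The D cyclins and the cyclin-dependent kinase (CDK) inhibitors decide whether a resting cell commits to another round of division. D cyclins bind CDK4 and CDK6 and switch them on, and the active kinases phosphorylate the retinoblastoma protein, which then releases E2F factors that drive the genes of DNA replication. Inhibitors of the INK4 family occupy CDK4 and CDK6 so that D cyclins cannot bind, whereas inhibitors of the Cip/Kip family bind cyclin-CDK complexes and act mainly on CDK2. In T cells, antigen receptor and IL-2 signals raise D cyclins and remove the Cip/Kip protein p27, the product of Cdkn1b.

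The 10 genes were taken by symbol from the array's own gene names: the D cyclins Ccnd1, Ccnd2 and Ccnd3, the Cip/Kip inhibitors Cdkn1a, Cdkn1b and Cdkn1c, and the INK4 inhibitors Cdkn2a, Cdkn2b, Cdkn2c and Cdkn2d. They were covered by 16 of the 39429 gene probes, in 25 of the 43020 gene spots, and by 10 of 30175 gene names. All 10 genes had at least 1 probe well above background on both arrays, so no gene was lost to the filter on dim signal.

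Regulatory T (Treg) cells, which restrain immune responses, were sorted from mice 5 weeks of age. One library was labelled Nr4a-deficient (from mice that the protocol calls Nr4a-TKO) and one was labelled wild-type. Each was hybridised to 1 single-colour Agilent array. The tissue, the sort markers, the strain, the number of animals, the deleted parts of the genes and any Cre driver are not stated in the sources used here. With 1 array per genotype no difference was tested, no p-value is given, and each value describes these libraries only. Differences are log2 values, wild-type subtracted from the library labelled Nr4a-deficient, with the 75th percentile of each array set equal. That percentile was 1762 units with the Nr4a-deficient label and 2047 units in wild-type, so a gene with slightly fewer unscaled units under the Nr4a-deficient label can still have a difference above 0. In bulk RNA, fewer cells of a type and less RNA per cell cannot be told apart.

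Nr4a1 and Nr4a2 went against the label. Nr4a1 gave 80407 units of intensity in the library labelled Nr4a-deficient, against 51441 for wild-type, a difference of 0.86. Both probes of Nr4a2 also lay above 0 (0.98 and 0.68). The Nr4a3 probe was above the background limit on neither array. It gave 22.3 units with the Nr4a-deficient label and 71.6 units in wild-type, the direction of the label, and is given no fold. Probes outside the deleted part check nothing, so the directions below rest on the label. T cell markers were bright in both libraries, and Cd3e differed by 0.18 and Cd4 by 0.12. Foxp3, the Treg lineage factor, gave 74.5 units of intensity in the library labelled Nr4a-deficient, against 85.4 for wild-type, close to the lowest signals called above background (51.1 units with the Nr4a-deficient label and 73.8 units in wild-type). Of 9 Treg and T cell markers 1 was past 2-fold, Il2ra, the IL-2 receptor alpha chain, at -1.27, and with the spike-in scale or no scaling 2 were lower. The second on the spike-in scale was Tnfrsf18, a TNF receptor family gene high in Treg cells, at -1.23 there and -0.86 on the 75th percentile scale. The 8 spike-in RNAs were 0.37 ± 0.058 (SD, n = 8) brighter in the library labelled Nr4a-deficient once scaled. Anchoring the arrays on the spike-ins subtracts 0.37 from each value, so that any value from 0 to 0.37 turns negative.

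The array probes are 60-base oligonucleotides, and several of these genes have probes that do not behave alike. The last 30 bases of the probes on which the results turn follow, 5′ to 3′, as the array files give them. Capitals mark runs of at least 5 A or 5 T.
Cdkn1a probe A_51_P363947: gctgatcctttctcagtgttgaataccgtg
Cdkn1a probe A_55_P1976204: tcttgtgtttcagccacaggcaccatgtcc
Cdkn1a probe A_55_P1986282: acgtcccactttgccagcagaataaaaggt
Cdkn1c probe A_51_P339540: tgaaaactgtgcaatgtattgagaacactc
Ccnd1 probe A_66_P111562: gttttgtgttaattacagcattgtgctaat
Cdkn2a probe A_55_P2008437: aagggaataatggctggattgtttAAAAAA
Cdkn2a probe A_55_P2008438: ggctttAAAAAAtacataataatgcTTTTT
Cdkn2b probe A_55_P1988183: ctctatgcaaaatagtttaataaccacttt
Cdkn2b probe A_55_P1979526: ccaaggagatttagtattgtatgaagttcc

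In the library labelled Nr4a-deficient, 5 of the 10 genes were higher by at least 2-fold and 0 were lower by that much, at the brightest detected probe of each gene. Brightness was the mean scaled log2 signal of both arrays, and the call of Cdkn1a depends on this rule. Over all 18556 detected genes the same rule called 4.7% higher and 4.94% lower. Among genes well above background on both arrays, as all 10 members were, the shares were 2.65% and 3.06%. By probe they were 2.49% and 2.9% with both arrays above background, and 4.42% and 4.68% with 1 array enough. The genes that were higher were 1 D cyclin (Ccnd1), 2 Cip/Kip inhibitors (Cdkn1a and Cdkn1c) and 2 INK4 inhibitors (Cdkn2a and Cdkn2b). Ccnd2, Ccnd3, Cdkn1b, Cdkn2c and Cdkn2d lay between -0.15 and 0.28. No member lay between 0.28 and 1.54, with 5 genes near 0 and 5 past 2-fold. The median of the 10 was 0.91, beside 0.00 for all detected genes. The plot of signals by probe shows every value.

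**Figure D1:**
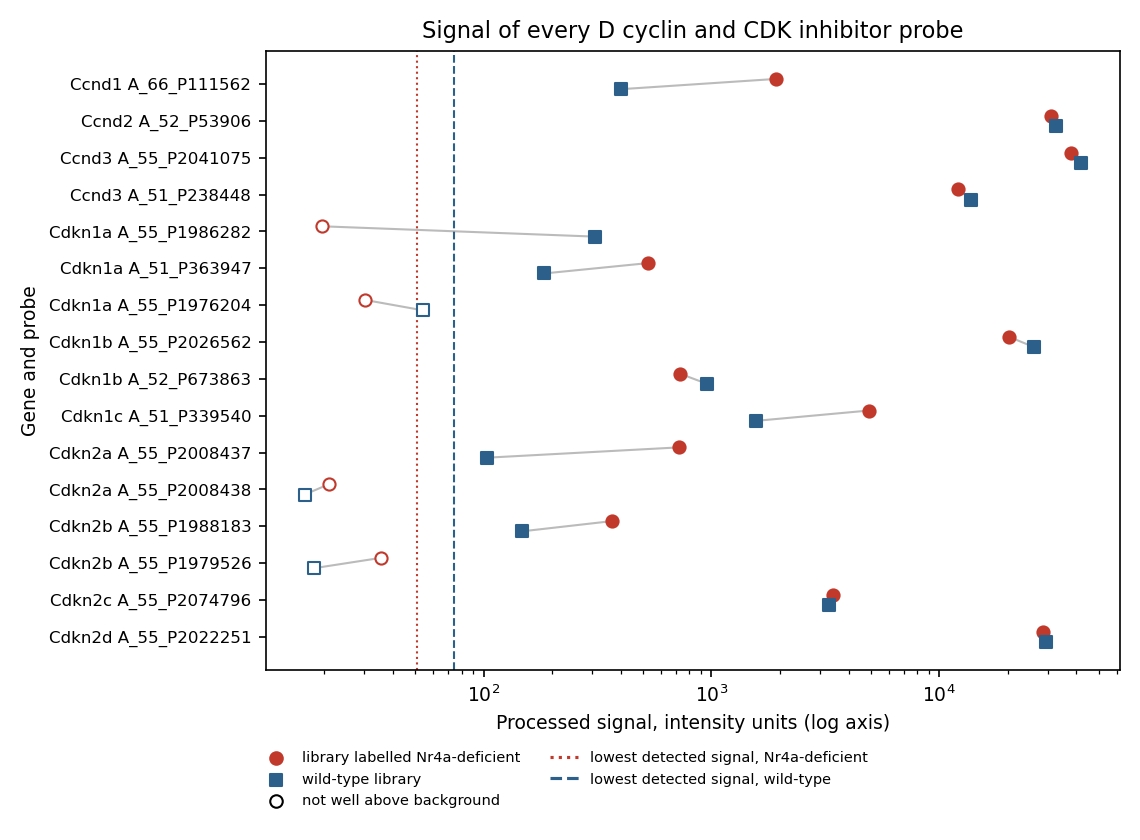
Processed signal (intensity units, log axis) of all 16 probes, with circles for the library labelled Nr4a-deficient and squares for the wild-type library. Open symbols were not well above background, and the vertical lines give the lowest detected signal of each array (51.1 and 73.8). Circles lie far to the right of squares for Ccnd1, Cdkn1c and 1 probe each of Cdkn1a, Cdkn2a and Cdkn2b, and Cdkn1a probe A_55_P1986282 goes the other way.

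The size that counts as large depends on signal, because dim probes scatter more. From probes printed repeatedly, the SD of a difference between single spots was 0.38 at scaled log2 signals under -3, 0.14 from -3 to -1, 0.087 from -1 to 1 and 0.074 above 1. This covers spot noise only and leaves out animals, sorts and RNA preparations. The share of detected genes at least 2-fold higher was 11.7%, 5.43%, 2.08% and 0.845% in the same order, and the share at least 2-fold lower was 12%, 5.63%, 2.32% and 1.08%. Cdkn2b was in the dimmest range, Cdkn2a, Cdkn1a and Ccnd1 in the next, and Cdkn1c and Cdkn2c in the third. Ccnd2, Ccnd3, Cdkn1b and Cdkn2d were in the brightest range, where 2-fold differences were rarest. These ranges describe precision and do not rank transcripts, since probes differ in how well they hybridise.

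**Figure D2:**
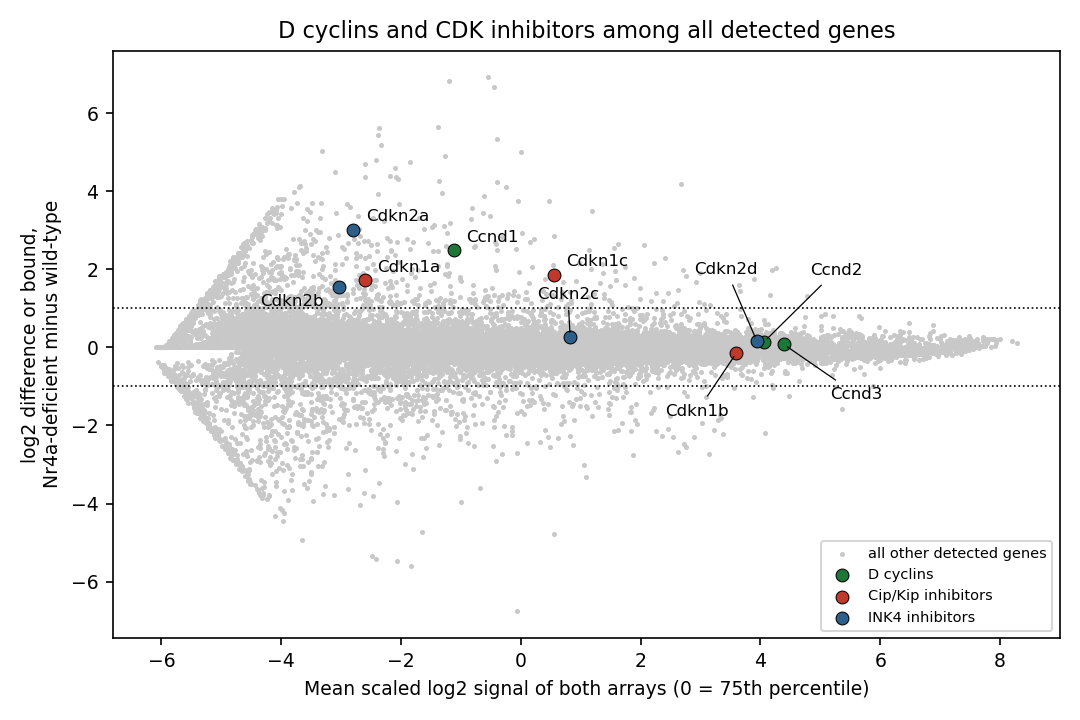
The log2 value or bound (Nr4a-deficient label minus wild-type) against the mean scaled log2 signal of both arrays, with 1 point for each of 18556 detected genes at its brightest probe and the 10 members in colour. Dotted lines mark 2-fold. Ccnd1, Cdkn1a, Cdkn1c, Cdkn2a and Cdkn2b lie above the upper line and the other members lie between the lines.

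Among the D cyclins, only Ccnd1 differed past 2-fold. Ccnd1, the D cyclin used by many non-lymphoid cells, gave 1928 units of intensity in the library labelled Nr4a-deficient, against 399 for wild-type. That is 5.61-fold higher (log2 difference 2.49), which is 17.6 times the spot SD of that range. Of the probes above background on both arrays, 0.437% had a difference at least as high. Its probe lies at chr7:152116202-152116261 on mm9, on the minus strand. The setting of the scale and normalization moved its difference between 2.12 and 2.49.

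Ccnd2 and Ccnd3, the D cyclins on which lymphocytes mainly rely, were nearly level. Ccnd2 gave 30935 units of intensity in the library labelled Nr4a-deficient, against 32478 for wild-type, a difference of 0.15. Ccnd3 gave 37962 units with the Nr4a-deficient label and 41839 units in wild-type at its brighter probe, a difference of 0.08. Its other probe, 312 bases away, gave 12125 units of intensity in the library labelled Nr4a-deficient, against 13749 for wild-type, a difference of 0.03. Both genes therefore differed by less than 0.2 at every probe, and on the spike-in scale all 3 values were below 0 (from -0.34 to -0.23).

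Among the Cip/Kip inhibitors, Cdkn1c and Cdkn1a were higher and Cdkn1b was not. Cdkn1c encodes p57, an inhibitor expressed from the maternal allele of an imprinted cluster and known for holding stem cells in quiescence. Its probe gave 4917 units of intensity in the library labelled Nr4a-deficient, against 1571 for wild-type, 3.63-fold higher (1.86). The difference was 21.3 times the spot SD of its range. In that range 2.08% of genes were at least 2-fold higher.

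Cdkn1b, which encodes p27, the inhibitor most closely tied to T cell quiescence, lay slightly below 0. At its brighter probe it gave 20230 units of intensity in the library labelled Nr4a-deficient, against 26048 for wild-type, a difference of -0.15. At its other probe, 1818 bases upstream, it gave 727 units with the Nr4a-deficient label and 960 units in wild-type, a difference of -0.18. The probes gave nearly equal differences, and every setting of scale and normalization kept both below 0 (lowest -0.56, highest -0.09).

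Cdkn1a, which encodes p21, an inhibitor induced by p53 and by other signals, gave opposite answers at its probes. Probe A_51_P363947 is printed in 10 spots and, per the design, lies in both RefSeq transcripts NM_007669 and NM_001111099. Its spots had 489 units of intensity at the lowest, 519 at the median and 584 at the highest in the library labelled Nr4a-deficient, against 160, 179 and 241 in the wild-type library. The spots of the arrays did not overlap, and the difference was 1.73 (3.31-fold higher). That is 12.2 times the spot SD of its range, which holds for differences of single spots, whereas this value averages 10 spots per array. The log2 SD of this probe's own spots was 0.087 with the Nr4a-deficient label and 0.18 in wild-type.

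The most upstream Cdkn1a probe, A_55_P1986282, went the other way. It lies at chr17:29227986-29228045 on mm9, 9391 bases upstream of probe A_51_P363947, and the design lists it for NM_001111099 and not for NM_007669. It had 19.5 units of intensity in the library labelled Nr4a-deficient, not well above background, against 308 for wild-type. With that label the signal was lower by at least 5.18-fold, taking the lowest detected scaled signal of that array as the floor. The probe was printed in 1 spot, so no spread of its own is known.

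The third Cdkn1a probe, A_55_P1976204, lies between the others and was designed for transcript ENSMUST00000122348. It gave 30.2 units of intensity in the library labelled Nr4a-deficient, against 54.0 for wild-type, which was above the background limit on neither array, and it is given no fold. Cdkn1a is thus 1 of 10 genes, among 4260 with several detected probes (0.235%), in which one probe was at least 2-fold higher and another at least 2-fold lower. At its dimmest detected probe Cdkn1a has a bound of -2.37. The mean of the detected probes uses that bound, so its result of -0.32 is an upper limit and not a measured value. Brightness was the mean scaled signal of both arrays, so the low signal on 1 array helped to rank the upstream probe as dimmest. In wild-type that probe was the brighter, with 308 units against an average of 184 at probe A_51_P363947. The call of Cdkn1a as higher therefore belongs to the probe shared by both transcripts and to this rule. The plot of Cdkn1a signal along the gene shows the reversal.

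**Figure D3:**
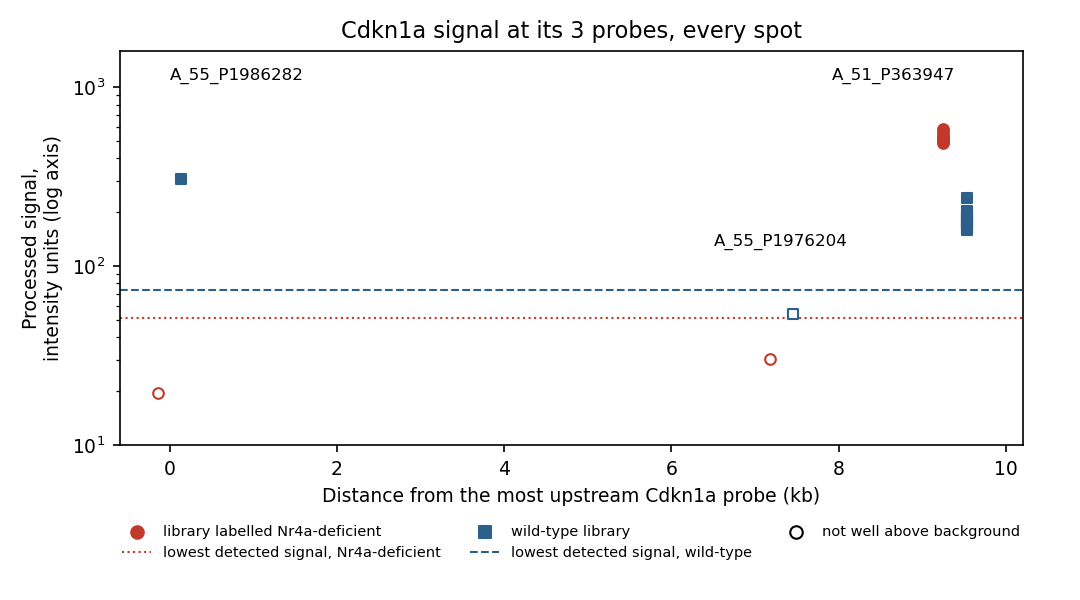
Processed signal (intensity units, log axis) of every Cdkn1a spot against the distance of its probe from the most upstream probe (kb), with circles for the library labelled Nr4a-deficient and squares for the wild-type library. Open symbols were not well above background. At the probe 9.39 kb downstream all 10 circles (489 to 584) lie above all 10 squares (160 to 241), and at the most upstream probe the square (308) lies above the circle (19.5).

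The INK4 genes split in pairs. Cdkn2a had the highest difference of the 10 members. At probe A_55_P2008437 it gave 722 units of intensity in the library labelled Nr4a-deficient, against 104 for wild-type, 8.10-fold higher (3.02). The Cdkn2a locus encodes the INK4 protein p16 and, in another reading frame, p19ARF, which protects p53 from its ubiquitin ligase Mdm2. Both Cdkn2a probes are listed for NM_009877 and NM_001040654 alike, so the products cannot be told apart here.

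The other Cdkn2a probe, A_55_P2008438, lies only 138 bases from the first and was above the background limit on neither array. It gave 20.9 units of intensity in the library labelled Nr4a-deficient, against 16.4 for wild-type. Its GC content was 35%, beside 48.3% at probe A_55_P2008437. Its sequence above holds an A run and a T run, and that of the detected probe also ends in an A run. Cdkn1b probe A_55_P2026562, also at 35% GC and with an A run and a T run, gave 20230 units with the Nr4a-deficient label and 26048 units in wild-type. Why the Cdkn2a probes differ in signal was not tested. The wild-type signal at the detected probe was also near the lowest detected signal of that array (73.8). With normexp background correction and quantile normalization included, the difference ranged from 2.13 to 3.02 and stayed past 2-fold.

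Cdkn2b, the neighbour of Cdkn2a, encodes the INK4 protein p15, an inhibitor known for its induction by TGF-beta. At probe A_55_P1988183 it gave 368 units of intensity in the library labelled Nr4a-deficient, against 147 for wild-type, 2.90-fold higher (1.54). This was 4.09 times the spot SD, the smallest margin of the 5 higher genes, in a range where 11.7% of genes were as much as 2-fold higher. That ranking depends on the range edge at -3, since the mean scaled signal was -3.03 for Cdkn2b and -2.80 for Cdkn2a. In wild-type the Cdkn2a probe was the dimmer one, at -4.30 against -3.80 for Cdkn2b. Its other probe, 444 bases away, gave 35.3 units of intensity in the library labelled Nr4a-deficient, against 18 for wild-type, and was above the background limit on neither array. Over the settings the difference of the detected probe ranged from 1.02 to 1.54, just past 2-fold at its lowest.

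Cdkn2c and Cdkn2d, which encode p18 and p19INK4d, the INK4 proteins commonly found in lymphocytes, stayed within 2-fold. Cdkn2c gave 3431 units of intensity in the library labelled Nr4a-deficient, against 3288 for wild-type, a difference of 0.28. Cdkn2d gave 28643 units with the Nr4a-deficient label and 29496 units in wild-type, a difference of 0.17. Both turned to values below 0 on the spike-in scale, -0.09 for Cdkn2c and -0.20 for Cdkn2d.

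**Figure D4:**
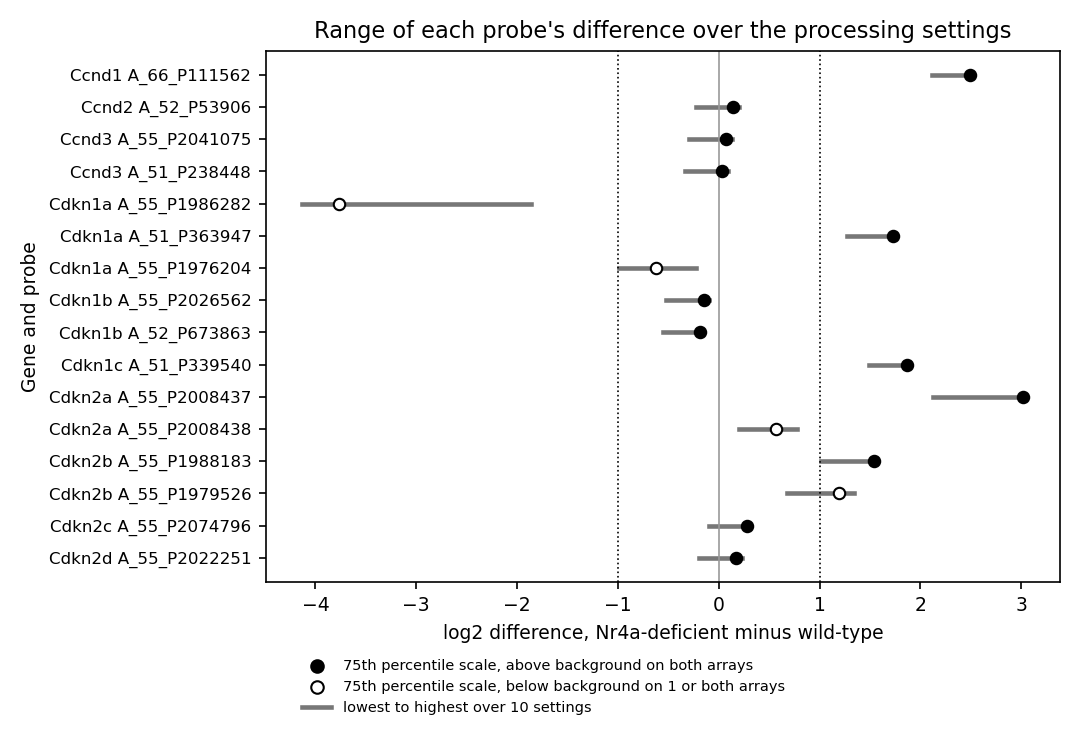
The log2 value (Nr4a-deficient label minus wild-type) of each of the 16 probes. Points give the value on the 75th percentile scale, filled where the probe was above background on both arrays, and grey bars run from the lowest to the highest value over 10 settings of scale, normalization and value source. At the brightest detected probe of each of the 5 higher genes the bar stays above 1, the lowest being Cdkn2b at 1.02. The bar of Cdkn1a probe A_55_P1986282, detected in wild-type only, runs from -4.13 to -1.86, and those of Ccnd2, Ccnd3, Cdkn2c and Cdkn2d cross 0.

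The kinases and cyclins that these proteins act with did not differ past 2-fold. Of 5 detected cell cycle kinases and 5 detected cyclins outside the D type, 0 were at least 2-fold higher or lower, with medians of -0.27 each. Cdk4 gave 23034 units of intensity in the library labelled Nr4a-deficient, against 33045 for wild-type, a difference of -0.30. Cdk6, the other D cyclin partner, lay at 0.42, and Cdk2, the partner of the E cyclins, at -0.27. Ccne1 lay at -0.17, and Ccne2 was above the background limit on neither array.

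Further along the pathway the pattern was the same. Of 13 pocket protein, E2F and DP genes, 0 passed 2-fold, and the median was -0.13. Rb1, the retinoblastoma gene, lay at -0.46, Rbl2 (p130, the pocket protein of resting cells) at -0.13 and Rbl1 (p107) at 0.13. Of 25 S phase genes, 0 passed 2-fold and 21 lay below 0, with a median of -0.27. Of 24 G2 and M phase genes, 0 passed 2-fold and all 24 lay below 0 (the highest at -3.9e-05), with a median of -0.37, beside 0.00 for all genes. This list shares genes with the kinase and cyclin lists above, so their values are not separate observations. Of all detected genes 9219 lay above 0 and 9158 below. The medians of both lists were below 0 and below that of all genes under all 16 other settings, and at least 19 S phase genes and at least 22 G2 and M phase genes were below 0 in each. Thresholds of 1.5-fold and 3-fold cannot change a median, and the deposited value table holds the same signal, so these settings only repeat the main values. The count past 2-fold did depend on the scale. Anchored on the spike-ins, 3 S phase genes and 2 G2 and M phase genes were at least 2-fold lower, and 1 S phase gene was with array-median scaling, no scaling, quantile normalization or cyclic loess.

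Genes that control the members also stayed within 2-fold on the 75th percentile scale. Of 17 genes for the turnover of D cyclins and Kip proteins 0 passed 2-fold (median -0.0040), and of 24 transcriptional regulators 0 passed (median -0.052). Skp2, which marks p27 for degradation, was the lowest turnover gene, with 287 units of intensity in the library labelled Nr4a-deficient, against 561 for wild-type (-0.75). Myc, which represses some CDK inhibitor genes, was the lowest regulator at -0.55. At the other end, Tcf7 was the highest regulator at 0.60 and Fbxo31 the highest turnover gene at 0.40. On the spike-in scale Skp2 was past 2-fold (-1.12), the 1 turnover gene that was. Skp2, Myc, Tcf7 and Fbxo31 were named after their values were seen. Of 27 p53 target genes 1 was at least 2-fold higher, which was Cdkn1a itself, and the median was -0.0027. With the spike-in scale and with no scaling 1 p53 target was at least 2-fold lower, which on the spike-in scale was Bbc3, a proapoptotic gene (-1.20). Of 14 antiproliferative genes tied to quiescence 0 passed, with a median of 0.04.

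**Figure D5:**
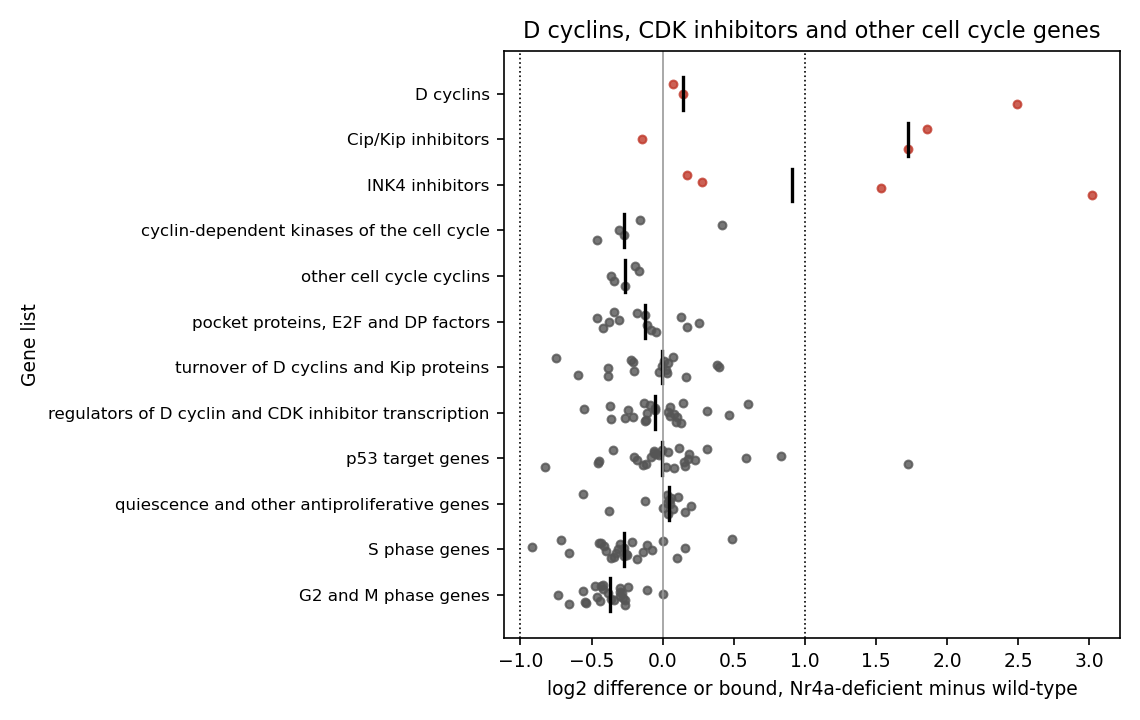
The log2 value or bound (Nr4a-deficient label minus wild-type) of each detected gene, by list, with black ticks at the medians and dotted lines at 2-fold. Points past 2-fold belong to the D cyclins, Cip/Kip inhibitors and INK4 inhibitors, and the point beyond 1 among p53 targets is Cdkn1a. The S phase (median -0.27) and G2 and M phase (median -0.37) genes lie mostly to the left of 0.

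Some of the higher genes lie near each other. The detected probes of Cdkn2a and Cdkn2b lie 31.9 kb apart on chromosome 4, and those of Cdkn1c and Ccnd1 lie 1.47 Mb apart on chromosome 7 (mm9). The nearest 2 protein-coding genes on each side of every member that were on the array were read from RefSeq's gene order (GRCm38.p6), a choice made after the values were seen. Of 27 detected neighbours that are not members, 3 were at least 2-fold higher and 1 lower, with a median of 0.013. Over all detected genes the shares were 4.7% and 4.94%. The lower one was Apold1, next to Cdkn1b (-1.79), and 1 of the higher ones was Ap1m2, next to Cdkn2d (at least 2.17-fold). Around the 5 higher genes, 2 of 10 detected neighbours were higher. These were Kcnq1, a potassium channel gene of the imprinted cluster of Cdkn1c (at least 5.55-fold), and Rab44, next to Cdkn1a (at least 4.49-fold). All 3 higher neighbours, Ap1m2 included, were well above background only with the Nr4a-deficient label. They thus entered the count through the array where they are high. Ap1m2 gave 72.4 units in wild-type, just under the lowest detected signal there (73.8). No neighbour above background on both arrays, other than the members themselves, was at least 2-fold higher. Of the other neighbours of Cdkn1c, Slc22a18 had a bound of only 1.18-fold, and Trpm5 and Phlda2 were above the background limit on neither array. Next to Cdkn2a, Mtap, which encodes a methionine salvage enzyme, lay at 0.07.

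Because the design lists probe A_55_P1986282 for 1 Cdkn1a transcript only, beginning at its base 55, the sequence before each RefSeq start of that gene is shown. Which start gave the signal of each probe was not tested. The first sequence is the 250 bases before the upstream start (chr17:29090729-29090978, plus strand) and the second the 250 bases before the downstream start (chr17:29093519-29093768, plus strand), from RefSeq on GRCm38.p6. Capitals mark a p53 response element in the first and GC boxes (GGGCGG) in the second.
Cdkn1a upstream start: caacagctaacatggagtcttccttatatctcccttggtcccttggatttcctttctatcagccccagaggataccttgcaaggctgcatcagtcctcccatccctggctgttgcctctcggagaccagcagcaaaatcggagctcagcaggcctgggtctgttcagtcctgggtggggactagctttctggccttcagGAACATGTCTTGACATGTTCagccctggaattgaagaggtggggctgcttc
Cdkn1a downstream start: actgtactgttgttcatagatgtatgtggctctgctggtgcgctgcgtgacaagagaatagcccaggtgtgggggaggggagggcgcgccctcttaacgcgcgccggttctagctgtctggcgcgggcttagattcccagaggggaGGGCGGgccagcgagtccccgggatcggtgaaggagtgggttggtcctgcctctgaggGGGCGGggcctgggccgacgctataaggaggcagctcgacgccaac

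The starts of Cdkn1a differ in these letters. The upstream window holds a p53 response element of adjacent 10-base sites with 1 mismatch, beginning 51 bases before the start, a form found in 0.0883% of the table's 32851 windows. The downstream window holds GC boxes beginning 104 and 46 bases before the start, and 35.7% of all windows hold a GC box on either strand. Of the 11 windows available for 7 members, 9 hold a GC box and 1 holds the p53 element. Ccnd1, Ccnd2 and Cdkn1c had no entry.

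A search on both strands for the letters AAAGGTCA, the NBRE to which Nr4a receptors bind as monomers, found 1 of the 11 windows, beside 1.51% of all windows. It lies in the window of the upstream Ccnd3 start, a gene that differed by 0.08 at its brighter probe. The E2F site TTTCCCGC was found in 1 of 11 windows, the Cdkn2a start farther upstream, beside 1.07% of all windows. TTTGGCGC and TATAAA were in 0 of 11 (0.514% and 13.6% of all), and the forkhead site GTAAACA was in 1 of 11 (3.65%), the same Ccnd3 window. A match describes letters, and these windows of 250 bases before to 50 after a start leave out distant elements. The stretches with the NBRE and the E2F letters in capitals come next (chr17:47504925-47504984, plus strand, and chr4:89294686-89294745, minus strand).
Ccnd3 upstream start: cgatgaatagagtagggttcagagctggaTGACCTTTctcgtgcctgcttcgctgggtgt
Cdkn2a upstream start: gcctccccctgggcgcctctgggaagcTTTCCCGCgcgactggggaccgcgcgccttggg

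Markers of other cell types moved between the same libraries, and their part in the values of the 10 genes was not tested. Of 12 detected B cell markers 4 were higher and 0 lower (median 0.90), and their summed signal was 74832 units of intensity in the library labelled Nr4a-deficient, against 34683 for wild-type, while Pax5 and Blk were not well above background on either array. Of 10 plasmacytoid dendritic cell markers 8 were higher (median 3.76), with sums of 194353 units with the Nr4a-deficient label and 167010 units in wild-type. Siglech, a defining marker of those cells, lay at 0.10 and made up most of both sums, with 136839 units under the Nr4a-deficient label and 147869 units in wild-type. Without it, a choice made after the values were seen, the other 9 markers summed to 57514 units with the Nr4a-deficient label and 19141 units in wild-type. Cox6a2 lay at 6.83.

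The remaining marker lists went both ways. Among 11 markers of NK and CD8 T cells 3 were higher and 1 lower (median 0.42), summing to 32015 units of intensity in the library labelled Nr4a-deficient, against 26653 for wild-type, and Ncr1 was above the background limit on neither array. Of 15 myeloid and dendritic cell markers 4 were higher, among them Itgax (2.65), and 5 were lower, among them C1qc (-1.60), while Xcr1 was below the limit on both, with sums of 109838 units with the Nr4a-deficient label and 150137 units in wild-type. Of 7 erythroid and platelet markers 5 were lower (median -1.63), with sums of 64143 units with the Nr4a-deficient label and 236250 units in wild-type, and Klf1, Pf4, Ppbp, Itga2b and Gp9 were not well above background on either array. Of 9 granulocyte and mast cell markers 4 were higher, summing to 5918 units with the Nr4a-deficient label and 4173 units in wild-type, with Ltf, Retnlg, Mcpt8, Cpa3 and Fcer1a below the limit on both. Of 8 stromal and epithelial markers 1 was higher, summing to 23039 units with the Nr4a-deficient label and 21363 units in wild-type, with Krt8, Pdgfra, Pdgfrb and Dcn below the limit on both. Of 7 thymocyte markers 1 was higher and 1 lower, summing to 43033 units with the Nr4a-deficient label and 37421 units in wild-type, with Rag2 and Ptcra below the limit on both. On the spike-in scale the counts were 3 higher for B cell markers, 7 higher for plasmacytoid dendritic cell markers, and 2 higher and 1 lower for NK and CD8 T cell markers. They were 3 higher and 6 lower for myeloid and dendritic cell markers, and 2 higher for granulocyte and mast cell markers. Stromal and epithelial markers had 1 higher and 1 lower, and thymocyte markers 0 higher and 3 lower. The erythroid and platelet count stayed at 5 lower.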

How the data were processed

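Per the file headers, the deposited intensity values come from version 10.7.3.1 of Agilent Feature Extraction, with background subtraction and detrending inside each array. No normalization between arrays is recorded there. The authors' deposited value table holds the same processed intensity (99.6% of 39348 shared probes within 1% of the scanner value on each array, column medians 143.7 for the Nr4a-deficient label and 156.8 for wild-type), and its scale was found to be linear and not centred. Per the labels, cRNA was amplified with a low-input kit.

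Outlier-flagged spots were dropped, 173 on the array labelled Nr4a-deficient and 209 on the other, and 0 gene spots were saturated. Processed signals were put on the log2 scale, repeated spots were averaged, and the array's 75th percentile was subtracted. The scanner's call of well above background was required in over 50% of a probe's spots, which held for 58.7% of probes with the Nr4a-deficient label and 55.6% in wild-type. A gene took its brightest detected probe, by the mean scaled signal of both arrays. A probe detected on 1 array has only a bound, and its low signal on the other array also lowers its brightness rank. A difference of at least 2-fold was counted, with no test. The number of arrays limits the precision. Functions were tested on simulated data. Limma 3.58.1 was used for normexp, quantile and loess alternatives, and Python 3.11.15 for the rest.

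The members and lists were chosen with earlier results of these data known. All members and probes are named, with 8 partner genes (Cdk4, Cdk6, Cdk2, Ccne1, Ccne2, Rb1, Rbl1 and Rbl2), the Nr4a genes, and at most 2 genes past 2-fold at each end of the other lists. Cd3e, Cd4, Foxp3, Tnfrsf18, Siglech, Skp2, Myc, Tcf7, Fbxo31 and Bbc3 were named outside that rule, after their values were seen. So were the neighbouring genes and the cell type markers below background on both arrays. Positions of probes come from the array design (mm9). No mm9 annotation was used, so exons are not named.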

Additional observations from a re-analysis of the deposited data

How the results depend on the processing

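The 5 higher members were counted as 5 under 13 of 16 alternatives. Some of these could not change the count. Each member's brightest detected probe was above background on both arrays, so the settings of filter and bounds left its value as it was. The deposited value table holds the same signal. With each gene's probes averaged and with the dimmest detected probe the count was 4, because Cdkn1a left it, with 3-fold as the threshold it was 4, because Cdkn2b left it, and with the dimmest probe 1 member, Cdkn1a, was counted as lower. Of 144 values of member probes under other settings, 108 moved by less than the spot SD, 36 moved by more, and 0 of the probe values past 2-fold and above background on both arrays changed sign. The spike-in shift of 0.37 is too small to reverse the sign of a value past 2-fold. Of 704 counts for the gene lists, 57 moved by over 1.5 times. Over all genes 873 were higher and 917 lower (48.8% of the changed genes higher). With the spike-in scale these were 561 and 1510 (27.1%), and with no scaling 36.2% were higher. Normexp and quantile normalization gave 571 higher. With both arrays above background 434 were higher and 499 lower, and with no filter on dim probes 2064 and 1787. With measured values in place of bounds 1432 were higher. With 1.5-fold as the threshold 1620 were higher and 1612 lower, and with 3-fold 449 and 502. The causes were not tested, apart from thresholds and filters, which change the count by construction. The spike-in scale moved the median of all genes to -0.37. No paired analysis was possible because each group holds 1 sample, and for the same reason no array could be left out. Signal near background limits Cdkn2a, Cdkn2b and Cdkn1a most.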
